A study of Homo sapiens with 2 samples.

Results

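Integrin and laminin genes were examined in hTERT-RPE1, an established human cell line derived from retinal pigment epithelium and kept dividing by added telomerase, after transfection with a miR-129-3p oligo or a control oligo. The genes were chosen by symbol: those whose name starts with ITGA or ITGB, without the integrin-binding proteins and ITGBL1, and the LAMA, LAMB and LAMC chains. The rule found 42 genes read by 103 probe sets, of 19775 genes and 54613 probe sets in all. Of the 42 genes, 35 encode proteins, and the other 7 are noncoding neighbours or a pseudogene that carry the same root name. ITGB6, for which each probe set carries a second gene name, is not analysed here.

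The miR-129-3p cells had received the miR-129-3p oligo by lipid transfection 72 h before total RNA was taken, and the control cells a control oligo for the same time. Both groups were cells of the same hTERT-RPE1 line, grown with 10% fetal bovine serum and hygromycin B. Each group held 1 Affymetrix expression array, so no value has a replicate error, nothing was tested, and every difference compares these 2 arrays. In RNA from whole cultures, fewer cells that express a gene and less RNA per cell cannot be told apart.

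Integrins are cell-surface receptors made of an alpha and a beta subunit, and the pair decides which matrix protein is bound: collagen, laminin, or proteins such as fibronectin and vitronectin. Laminins are trimers of an alpha, a beta and a gamma chain that form the sheet of the basement membrane on which epithelia, the retinal pigment epithelium included, rest. On the cytoplasmic side, integrins are switched on by talin and kindlin and linked to actin filaments, and the study concerns actin and the cilium.

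The label miR-129-3p covers a pair of mature human microRNAs in RefSeq (GRCh38.p14), shown because this oligo defines the groups. In both, the seed that pairs with target RNAs (bases 2 to 8 from the 5′ end) is in capitals.
hsa-miR-129-1-3p: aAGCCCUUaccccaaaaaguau
hsa-miR-129-2-3p: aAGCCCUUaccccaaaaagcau
The first lies at chr7:128207920-128207941 and the second at chr11:43581450-43581471, both on the plus strand. They share the seed AGCCCUU and differ by 1 base outside it, U20C, counted from the 5′ end with the base of hsa-miR-129-1-3p first. The labels do not say which of them the oligo copies. Matches to the seed in the target transcripts were not analysed here.

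The miR-129-3p and control arrays had median signals of 98.0 and 96.5 over 54613 probe sets. A gene was called measured when its brightest probe set reached a signal of 100 on either array, which 12754 genes did. Differences are miR-129-3p minus control on the log2(signal + 16) scale, and folds are given on the same scale, so those of dim genes are understated. Of 12 retinal pigment epithelium markers with a probe set, 4 were measured: OTX2 (1625 and 1452 on the miR-129-3p and control arrays), TTR (110 and 91.0), PMEL (229 and 114, at least 1.5-fold higher) and MITF (1020 and 2470, at least 1.5-fold lower). The visual cycle genes RPE65, RLBP1 and LRAT stayed under 100 on both. Of 6 epithelial markers, 4 were measured: the keratin KRT18 read 2972 with miR-129-3p and 5787 in control, past the 1.5-fold limit, while KRT8 (4918 and 6138), CLDN1 (623 and 443) and CDH1 (89.7 and 103) were between the limits. How far these markers bear on the integrin and laminin values was not tested. None of the 8 leukocyte markers with a probe set reached 100 (summed signal 417 with miR-129-3p, 450 in control), so the myeloid and lymphoid integrin genes were read in cells whose leukocyte markers were under the filter.

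Of the 42 genes, 29 were measured. With miR-129-3p, 7 of the 29 were at least 1.5-fold higher: ITGA2, ITGA6, ITGA1, ITGB4, LAMB3, LAMA4 and LAMA5. Another 5 were at least 1.5-fold lower: ITGAV, ITGAE, ITGA11, ITGB3 and ITGA4. Over all 12754 measured genes, 17.3% passed 1.5-fold upward and 10.8% downward, against 24.1% and 17.2% of the 29. At those background shares, 29 genes would hold 5.0 higher and 3.1 lower genes, so the counts exceed them by only about 2 genes in each direction. At 2-fold, 6 members were higher and 3 lower, with 7.83% and 4.56% of all measured genes past that limit. The median of the 29 was -0.05, beside 0.03 over all measured genes, and the differences ran from -1.72 to 3.17.

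**Figure D1:**
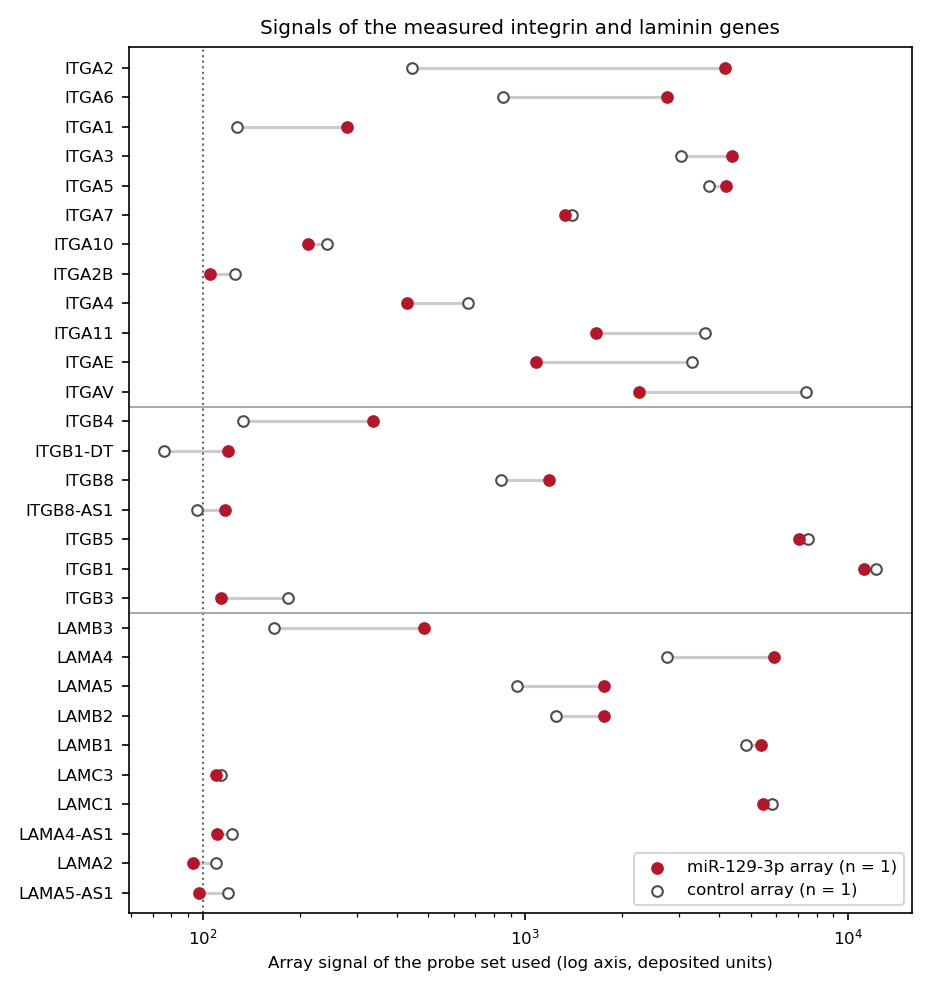
Signal of the probe set used for each of the 29 measured genes (horizontal log axis, deposited units); filled points are the miR-129-3p array, open points the control array, 1 array each, the dotted line marks a signal of 100, and grey lines separate integrin alpha, integrin beta and laminin genes. ITGA2 has the widest gap, 4151 with miR-129-3p and 447 in control, and ITGAV the widest gap the other way, 2251 and 7441.

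The 12 genes past 1.5-fold all had signals above 100 on both arrays. For the 13 genes that were not measured, every signal of the probe set used was between 30.0 and 96.4. Just below the limit stood ITGAL, at 90.4 with miR-129-3p and 96.4 in control, and ITGAX, at 75.1 and 95.9. Just above it stood LAMA2, at 93.5 with miR-129-3p and 110 in control, and LAMC3, at 110 and 114.

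Among the alpha subunits, the collagen receptors went both ways. ITGA2, whose product pairs with beta 1 as a collagen receptor of epithelial cells and platelets, read 4151 with miR-129-3p and 447 in control, a difference of 3.17 (9.01-fold higher). Its other probe set read 2435 and 237, a difference of 3.28, so both readings of the gene were far above the control array. Ordered from the highest difference down, ITGA2 held place 107 of 12754 measured genes. ITGA1, whose product prefers basement membrane collagen, read 280 with miR-129-3p and 128 in control (1.04, 2.06-fold higher). Only 1 of its 3 probe sets reached 100, and with the mean of all 3 the difference was 0.54. PELO, which lies within ITGA1 in RefSeq and was looked up after the values were seen, read 3231 with miR-129-3p and 1960 in control on its probe set with signal (0.72).

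ITGA11, a collagen receptor subunit best known from fibroblasts, was lower. It read 1658 with miR-129-3p and 3615 in control, a difference of -1.12 (2.17-fold lower), and its other probe sets differed by -0.71 and -1.45. All 3 probe sets were thus on the low side of the control array and past 1.5-fold. ITGA10, the subunit of a cartilage collagen receptor, read 211 with miR-129-3p and 244 in control (-0.19).

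The laminin-binding alpha subunits held 1 higher gene. ITGA6, which pairs with beta 1 or with beta 4 in hemidesmosomes, read 2755 with miR-129-3p and 853 in control, a difference of 1.67 (3.19-fold higher). Its other probe set read 535 and 171 (1.56). ITGA3, the subunit of another laminin receptor of epithelia, read 4367 with miR-129-3p and 3040 in control, a difference of 0.52 that stayed under 1.5-fold. ITGA7, a laminin receptor subunit known from muscle, read 1329 and 1400 (-0.07), with 0.10 on its other probe set.

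The subunits that recognise the RGD motif of fibronectin and vitronectin held the lowest member. ITGAV, which serves the vitronectin receptors and the integrins that activate latent TGF-beta, read 2251 with miR-129-3p and 7441 in control, a difference of -1.72 (3.29-fold lower). Counted from the lowest difference up, it was number 186 of 12754. That value rests on a single probe set, so no second reading of ITGAV was at hand. ITGA5, the fibronectin receptor subunit, read 4202 with miR-129-3p and 3711 in control (0.18). ITGA2B, the platelet fibrinogen receptor subunit, was close to the filter at 106 and 126 (-0.22), where 1 of the 6 platelet markers was measured (GP9, 173 with miR-129-3p and 139 in control). ITGA8, another RGD receptor subunit, was under the filter at 67.9 with miR-129-3p and 80.1 in control.

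ITGA4, a receptor subunit for fibronectin and VCAM1, read 429 with miR-129-3p and 665 in control, a difference of -0.61 (1.53-fold lower). Its 4 probe sets all lay below 0, between -0.64 and -0.31, so the gene sits at the edge of the 1.5-fold limit. It ended under the limit with an added constant of 64 (-0.56) and with the mean of its probe sets (-0.50). ITGA9, a related subunit, was under the filter at 52.7 with miR-129-3p and 44.7 in control.

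ITGAE, the alpha subunit that binds E-cadherin and is best known from lymphocytes in epithelia, read 1077 with miR-129-3p and 3298 in control (-1.60, 3.03-fold lower). It too rests on 1 probe set. HASPIN, a mitotic kinase gene that lies within ITGAE in RefSeq and was looked up after the values were seen, read 50.7 with miR-129-3p and 68.3 in control, under the filter. The beta 7 partner of alpha E, ITGB7, was also under the filter at 92.1 and 77.0, and the E-cadherin gene CDH1 stood at 89.7 and 103. The leukocyte subunits ITGAL, ITGAM, ITGAX and ITGAD were all under 100 on both arrays (from 30.0 to 96.4), as was their beta partner ITGB2 (62.6 with miR-129-3p and 77.3 in control). ITGAE was therefore the only measured gene of its group.

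**Figure D2:**
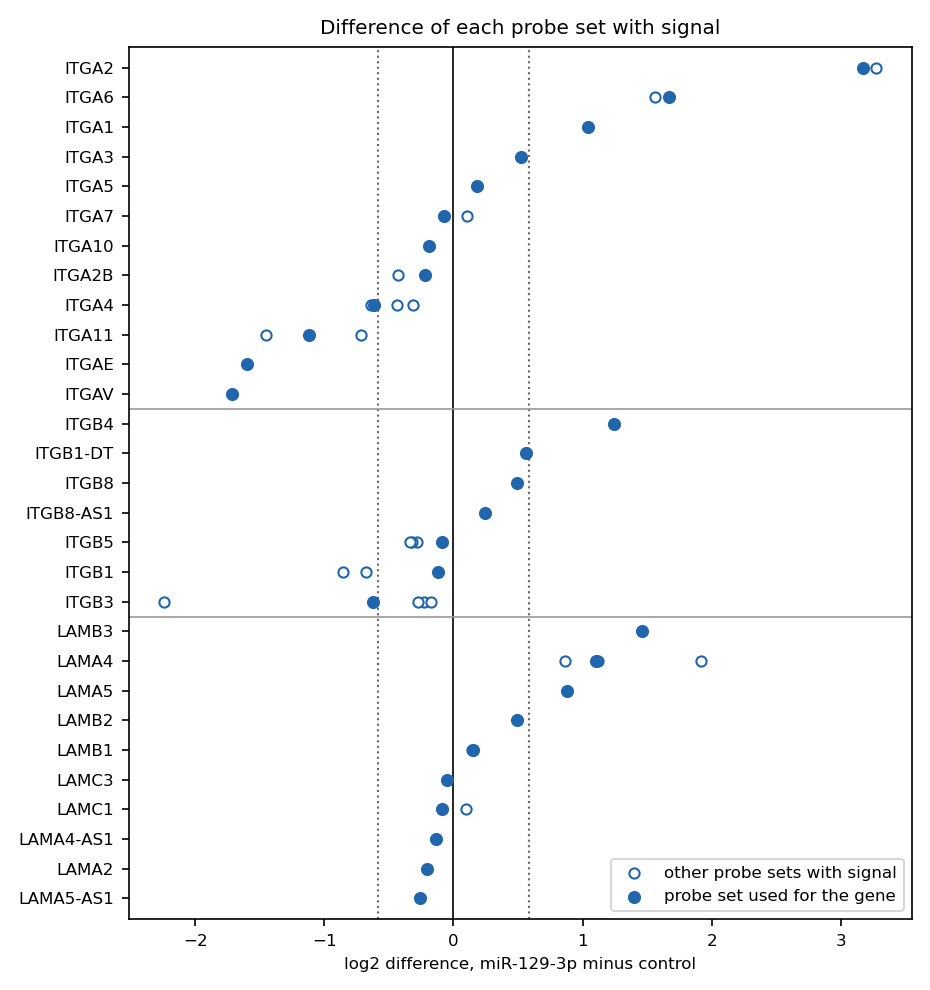
Log2 difference, miR-129-3p minus control, for every probe set of a measured gene with a signal of 100 or more on either array (horizontal axis); filled points are the probe sets used for the gene, open points its others, and dotted lines mark 1.5-fold. The points of ITGA2, ITGA6, LAMA4 and ITGA11 lie past 1.5-fold on every probe set, whereas those of ITGB3 run from -2.24 to -0.17.

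Differences of the measured beta subunits ran from -0.62 to 1.24. ITGB1, the common partner of most alpha subunits, read 11256 with miR-129-3p and 12263 in control on its brightest probe set (-0.12). Its other probe sets with signal read 5170 and 8283 (-0.68), and 4057 and 7339 (-0.85), so the readings of ITGB1 disagree on whether it was past 1.5-fold. With quantile normalization the brightest probe set stood at 0.01, on the other side of 0.

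Of ITGB5, ITGB8 and ITGB3, which encode partners of alpha V, only ITGB3 was past 1.5-fold, and that depended on the processing. ITGB5, a vitronectin receptor subunit, read 7059 with miR-129-3p and 7512 in control (-0.09), and its 4 probe sets lay between -0.34 and -0.09. ITGB8, which forms a receptor that activates TGF-beta, read 1187 and 840 (0.49), under the limit. ITGB3, the other vitronectin receptor beta subunit, read 114 with miR-129-3p and 184 in control (-0.62, 1.54-fold lower). One of its other probe sets read 42.9 and 262 (-2.24), while the remaining 3 with signal lay between -0.27 and -0.17. All 5 were below 0, by amounts that differ by 2.07 on the log2 scale. The gene dropped under 1.5-fold with an added constant of 64 (-0.48), with the mean of all its probe sets (-0.56), and without the probe sets ending in _x_at or _s_at (-0.23).

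ITGB4, the hemidesmosome subunit that pairs only with alpha 6, read 336 with miR-129-3p and 133 in control (1.24, 2.37-fold higher). Its other 4 probe sets were under 100 on both arrays, and with the mean of all 5 the difference was 0.24. The hemidesmosome linkers gave smaller differences: PLEC, the plectin gene, read 543 and 683 (-0.32), and DST, whose epithelial form is a hemidesmosome plakin, 3333 and 3432 (-0.04). CD151, the tetraspanin that binds laminin receptors, stood at 4815 with miR-129-3p and 3950 in control (0.28).

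Over the 5 measured beta subunit genes the median was -0.09, with 1 at least 1.5-fold higher and 1 lower. With the noncoding genes ITGB1-DT (120 with miR-129-3p, 76.0 in control) and ITGB8-AS1 (117 and 96.3), which the symbol rule also takes, the median was 0.24. Over the 12 measured alpha subunit genes it was -0.13, with 3 higher and 4 lower. Of all measured genes, 17.3% were at least 1.5-fold higher and 10.8% lower.

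Laminin chains had no member at least 1.5-fold lower. Of 8 measured chains, 3 were at least 1.5-fold higher and 5 were between the limits, with a median of 0.32. Over all measured genes 10.8% were lower and 17.3% higher, at which 8 genes would hold 0.9 lower and 1.4 higher, so the absence of lower chains is near the background. The noncoding genes LAMA4-AS1 (111 with miR-129-3p, 124 in control) and LAMA5-AS1 (97.4 and 120), also taken by the rule, bring the median to 0.05. LAMB3, the beta chain of the laminin that anchors epithelia through hemidesmosomes, read 485 with miR-129-3p and 166 in control on its only probe set (1.46, 2.75-fold higher).

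LAMA4, the alpha chain of laminins of vessels and mesenchymal cells, read 5913 with miR-129-3p and 2743 in control (1.10, 2.15-fold higher). Its other probe sets with signal differed by 0.87, 1.12 and 1.92, so all 4 readings were past 1.5-fold. LAMA5, the broadly expressed alpha chain of epithelial basement membranes, read 1756 and 945 (0.88, 1.84-fold higher) on 1 probe set. LAMA2, the muscle laminin chain, stood near the filter at 93.5 with miR-129-3p and 110 in control, and LAMA1, the embryonic chain, was under it at 68.7 and 50.3.

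The beta and gamma chains that LAMA4 and LAMA5 assemble with differed little. LAMB1 read 5382 with miR-129-3p and 4833 in control (0.15), with 0.15 on its other probe set as well. LAMC1, the gamma chain shared by most laminins, read 5447 and 5805 (-0.09), with 0.09 on its other probe set. LAMB2, the alternative beta chain, read 1755 with miR-129-3p and 1245 in control (0.49). In the trimer of LAMA4, LAMB1 and LAMC1, the alpha chain was thus the only gene past 1.5-fold, and the same holds of LAMA5 with those partners. LAMC3 (110 and 114) was near the filter, and LAMB4 was under it at 75.7 with miR-129-3p and 77.6 in control. The remaining noncoding genes, ITGA9-AS1, ITGB2-AS1 and the pseudogene LAMB2P1, were under 100 on both arrays as well.

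**Figure D3:**
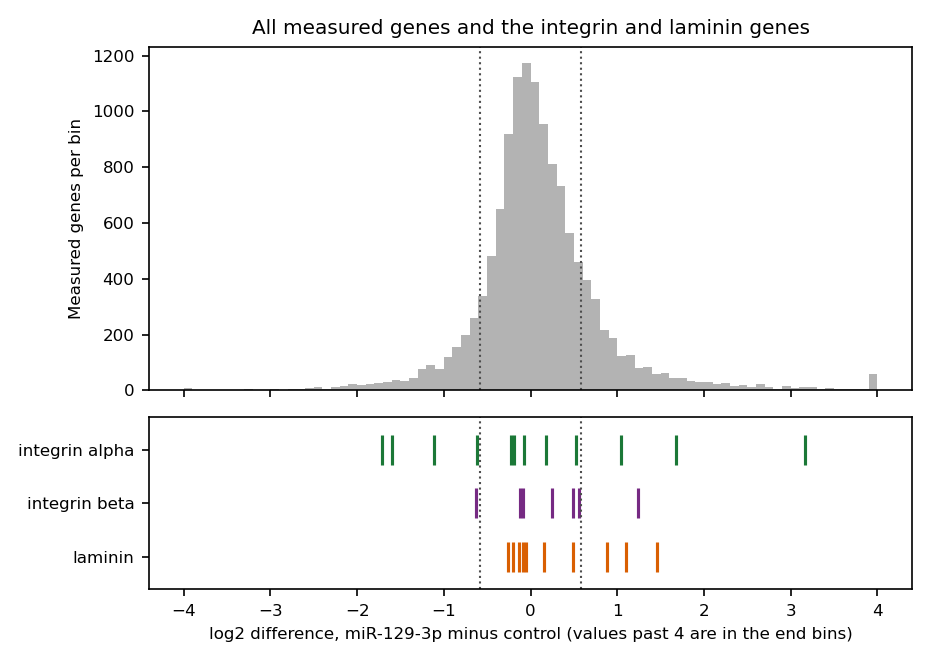
Upper panel, number of measured genes per 0.1-wide bin of log2 difference, miR-129-3p minus control, over all 12754 measured genes; lower panel, 1 tick for each of the 29 measured integrin and laminin genes by family, with dotted lines at 1.5-fold. The laminin ticks run from -0.26 to 1.46, and the integrin alpha ticks from -1.72 to 3.17.

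Of the 29 measured genes, 12 had more than 1 probe set with signal, and in 10 of these all such probe sets had the same sign. Of the 12 genes past 1.5-fold, 6 had a second reading: for all 6 the sign was shared, and for 4 (ITGA2, ITGA6, ITGA11 and LAMA4) every probe set with signal was past 1.5-fold. The other 6 (ITGA1, ITGAV, ITGAE, ITGB4, LAMA5 and LAMB3) rest on 1. The pooled SD between probe sets of a gene was 0.37 over 6179 genes and 0.44 over the 12 measured members with more than 1 probe set with signal, a spread within arrays that holds no difference between cultures.

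The 250 bases before the start of ITGA2 and ITGAV, the members with the highest and the lowest difference, are shown from RefSeq (GRCh38.p14), with the GC box of the SP1 factor (GGGCGG or, on the other strand, CCGCCC) in capitals. ITGA2 lies at chr5:52989102-52989351 and ITGAV, at the first of its 2 listed starts, at chr2:186589806-186590055, both on the plus strand.
ITGA2: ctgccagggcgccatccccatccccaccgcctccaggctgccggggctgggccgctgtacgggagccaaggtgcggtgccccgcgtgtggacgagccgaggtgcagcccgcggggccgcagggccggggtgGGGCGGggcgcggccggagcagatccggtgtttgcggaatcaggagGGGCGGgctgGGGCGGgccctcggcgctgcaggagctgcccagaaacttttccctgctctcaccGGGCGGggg
ITGAV: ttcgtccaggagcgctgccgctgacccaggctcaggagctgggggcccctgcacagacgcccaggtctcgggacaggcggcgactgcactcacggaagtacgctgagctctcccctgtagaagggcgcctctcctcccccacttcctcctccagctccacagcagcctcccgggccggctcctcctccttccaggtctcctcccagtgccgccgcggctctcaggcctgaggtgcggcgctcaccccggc
The ITGA2 stretch holds 4 GC boxes and the ITGAV stretch 0, at GC contents of 76.4% and 70.8%. The member counts below take any start of a gene, so they and the shares of all promoters are unlike measures. Of all 35116 promoters listed, each start counted apart, 42.6% hold at least 1 GC box. Of the 20 measured protein-coding members with a listed promoter, 11 hold one at any of their starts. They include 4 of the 6 that were at least 1.5-fold higher (ITGA2, ITGA6, LAMA5 and LAMB3) and 0 of the 4 that were lower. The rest of the 11 were between the limits: ITGA5, ITGB1, ITGB5, ITGB8, LAMB1, LAMB2 and LAMC1. The box was thus also common in genes that passed neither limit, and a link to direction was not tested. The CArG box of SRF was found in 0 of the 20 (1.16% of all promoters). The AP-1 site TGANTCA, which reads the same on both strands, was found in 1, LAMB3 (6.57% of all). The TEAD site GGAATG or its reverse complement CATTCC was found in 4: ITGA5, ITGA10, ITGB1 and LAMA2 (11.9% of all). The core of the interferon response element, GAAA followed by any 2 bases and GAAA again, on either strand, was found in 1, ITGB5 (3.02% of all). These matches describe letters in a short window, and no motif searched overlaps another in the stretches printed.

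The proteins that switch integrins on and tie them to actin were compared as a list of 18 genes. With miR-129-3p, 6 of the 15 measured genes were at least 1.5-fold lower, none was that much higher, and the list median was -0.51, beside 10.8% lower, 17.3% higher and a median of 0.03 over all measured genes. Without probe sets ending in _x_at or _s_at, 2 of 12 measured genes were lower. PARVA, the parvin of the complex with integrin-linked kinase, read 747 with miR-129-3p and 2238 in control (-1.56), and its 7 probe sets with signal lay between -2.39 and -0.87. TNS1, a tensin that binds beta subunit tails and actin, read 1739 and 4237 (-1.28). FERMT2, a kindlin, read 3072 with miR-129-3p and 5802 in control (-0.91), and TLN1, a talin gene, 252 and 437 (-0.76). The 3 probe sets of TLN1 with signal ran from -1.43 to -0.42. TLN2, the other talin gene of the list, read 162 with miR-129-3p and 234 in control (-0.49), under the limit. At the other end stood FERMT1 (0.18) and APBB1IP, the RIAM adaptor that brings talin to the membrane (0.05).

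The genes that hold integrins inactive or move them through endosomes had a median of -0.07. Of 13 measured genes, 2 were at least 1.5-fold higher and 1 lower. Those counts are near the shares over all measured genes, 17.3% higher and 10.8% lower. With the mean of all probe sets or a mean signal of 200 or more 1 was higher, and with any of the 3 other scalings or an added constant of 1, 2 were lower. The higher genes were the endocytic adaptors NUMB (250 with miR-129-3p and 142 in control, 0.75) and DAB2 (3155 and 1993, 0.66). The 6 probe sets of DAB2 with signal ran from 0.37 to 0.66, so not all were past 1.5-fold. RAB4A, of the fast recycling route, was lower (867 and 1362, -0.64), and RAB11FIP1 stood at -0.57.

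The membrane proteins that sit beside integrins had the highest median of the partner lists, 0.52, with 5 of 13 measured genes at least 1.5-fold higher and 0 lower, beside 17.3% and 10.8% of all measured genes. The median was 0.32 with the mean of all probe sets. CD47, the integrin-associated protein that also signals to macrophages, read 8992 with miR-129-3p and 2683 in control (1.74), with 6 probe sets between 1.07 and 2.20. PLAUR, the urokinase receptor, which binds vitronectin and integrins, read 6675 and 2442 (1.44). The lowest values of the list were -0.18, for SLC3A2 and TSPAN15.

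Basement membrane genes other than laminins had 5 of 14 measured genes at least 1.5-fold lower and 2 higher, and their median was -0.41. Of all measured genes, 10.8% were that much lower and 17.3% higher. The lower count was 6 with an added constant of 1, with any other scaling, or with the mean of all probe sets. The higher count was 3 with a loess trend subtracted. It was 1 with the mean of all probe sets, with a mean signal of 200 or more, or without probe sets ending in _x_at or _s_at. COL4A4 and COL4A3, neighbouring collagen IV chains of specialised basement membranes, had the lowest values. COL4A4 read 361 with miR-129-3p and 4732 in control (-3.65), but its 3 probe sets with signal ran from -3.65 to -0.28. COL4A3 read 277 and 2710 (-3.22), and its 4 ran from -3.22 to -1.92. The common collagen IV chains were also lower, COL4A1 at 5625 with miR-129-3p and 10699 in control (-0.93) and COL4A2 at 5189 and 8567 (-0.72). COL4A6 read 191 with miR-129-3p and 19.3 in control (2.55, from a control signal far under 100), and COL4A5 2717 and 1572 (0.78).

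The linkers between the laminin and collagen IV networks lay between the limits, though HSPG2 and NID2 were close to 1.5-fold. NID1 read 819 with miR-129-3p and 1151 in control (-0.48), and NID2 6496 and 4446 (0.55). HSPG2, the perlecan gene, read 389 and 584 (-0.57), and AGRN, which encodes agrin, 5989 and 5752 (0.06). The nidogens thus stood on opposite sides of 0.

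Laminin receptors outside the integrin family, with the enzymes that make dystroglycan's laminin-binding sugar, had a median of -0.02, with 2 of 12 measured genes at least 1.5-fold higher and 1 lower, near the shares over all measured genes. The higher count was 0 with the mean of all probe sets, and 1 with quantile normalization or without probe sets ending in _x_at or _s_at. B4GAT1, one of those enzymes, read 4235 with miR-129-3p and 1951 in control (1.11), and SGCB, a sarcoglycan, 3542 and 2303 (0.62), though its 4 probe sets with signal ran from -0.14 to 0.63. SDC2, a syndecan, read 3330 and 7415 (-1.15), and BCAM, a receptor for LAMA5, 312 and 408 (-0.37). DAG1 is not analysed here.

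In the list of other integrin ligands, 7 of 23 measured genes were at least 1.5-fold higher and 7 lower, with a median of -0.29. The list also takes in LTBP1, NRROS and LRRC32, whose products hold latent TGF-beta. LTBP1 (0.71) and NRROS (2.35) are among the higher genes and LRRC32 (-1.07) is among the lower. Of all measured genes, 17.3% were that much higher and 10.8% lower. The counts of this list depend on the processing. Without probe sets ending in _x_at or _s_at, 4 of 17 measured genes were higher and 9 lower. With a mean signal of 200 or more, 4 were higher and 6 lower. SPP1, the osteopontin gene and an alpha V ligand, read 3993 with miR-129-3p and 265 in control on its probe set with signal (3.83). THBS2, a thrombospondin, read 208 and 25.6 (2.43, from a control signal far under 100). POSTN, the periostin gene, read 396 with miR-129-3p and 3411 in control (-3.06), but its 4 probe sets with signal ran from -3.06 to -0.33. CCN1, a matricellular ligand of alpha V, read 1858 and 8046 (-2.11). FN1, the fibronectin gene, read 18897 and 20085 on its brightest probe set (-0.09), while its 7 probe sets with signal ran from -1.49 to -0.09. VTN, which encodes vitronectin, is not analysed here.

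**Figure D4:**
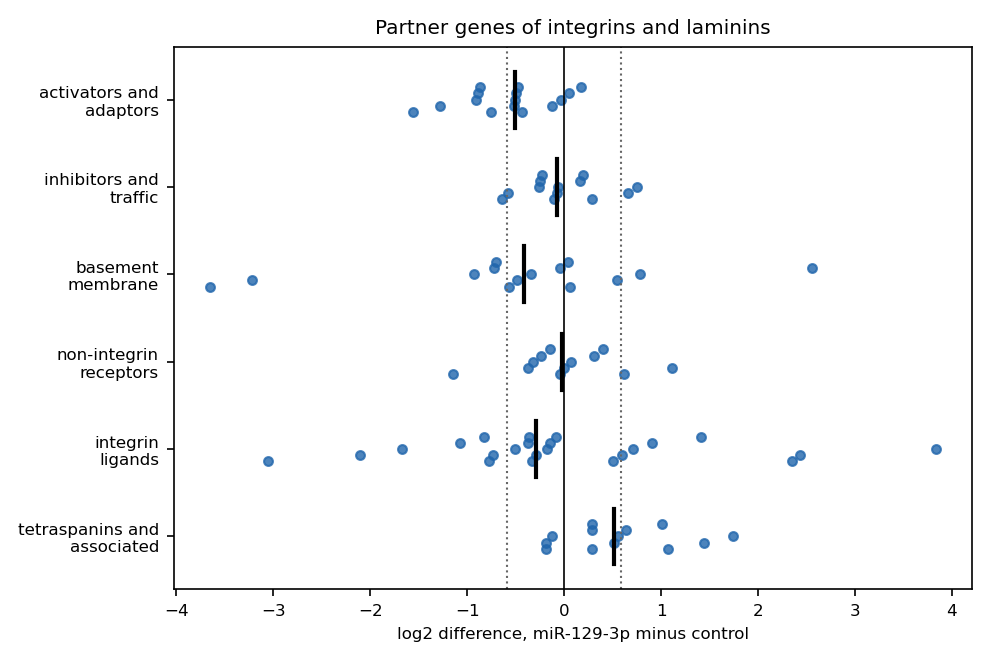
Log2 difference, miR-129-3p minus control, of the measured genes in each of 6 partner lists (horizontal axis; 1 point per gene, spread vertically for sight only); thick bars are list medians and dotted lines mark 1.5-fold. The median of the activators and adaptors is -0.51 with 0 genes past the right-hand line, and that of the tetraspanins and associated proteins is 0.52 with 0 genes past the left-hand line.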

How the data were processed

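The deposited table, made by the authors, gives 1 array intensity per probe set on a linear scale. Both MAS5 and RMA appear in the submitters' processing notes, and which of them made the values is not stated; versions, background correction, scaling between arrays and detection calls are not given in the sources used here. Any flooring upstream would affect dim genes most. Groups came from the genotype label. Of 54613 probe sets, 41091 had 1 gene symbol in the platform annotation, 1801 had several and 11721 were not listed; only the first kind was used. All 42 members matched RefSeq (GRCh38.p14) by gene ID.

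Each gene took the probe set with the highest mean log2(signal + 16). With 1 array per group no test was made; the number of arrays limits the precision. The members, partner lists, markers and limits were chosen with earlier results of these data known. All members are accounted for, and each list names its 2 measured genes at each end plus binding partners of members. The ligand list also names its genes whose products hold latent TGF-beta. Code was tested on simulated data. Alternatives changed the constant, scaling, filter, probe set rule, floor and fold limit, and 1 added after seeing the data kept only protein-coding members. Tables were handled with pandas 2.3.3 and numpy 2.4.6 in Python 3.11.15, the loess trend with statsmodels 0.14.6, and figures with matplotlib 3.10.9.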

Additional observations from a re-analysis of the deposited data

How the results depend on the processing

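No paired analysis was possible because each group has 1 array. The count of members at least 1.5-fold lower was 5 as reported, and 3 with a 2-fold limit, with an added constant of 64 or with the mean of all probe sets. The count of higher members was 7, and 5 to 8 over the alternatives. The laminin median by symbol was 0.05, and 0.69 with a mean signal of 200 or more, where fewer dim genes remain. The median of the other integrin ligands was -0.29, and -0.73 without probe sets ending in _x_at or _s_at; the cause was not tested. Of the 12 genes past 1.5-fold, 8 stayed past it under each of the 10 alternatives that gave them a value; ITGA1 and ITGB4 did not with the mean of all probe sets, and ITGA4 and ITGB3 as given above. Of the 17 others, 2 crossed the limit: ITGB1 without those probe sets (-0.68) and ITGB1-DT with a constant of 1 (0.65) or a loess trend subtracted. LAMA4 stood at 1.92 without those probe sets, against 1.10. No difference past 1.5-fold changed sign. The unknown background level limits what can be said of genes under 100.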

Other observations

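Probe sets that carry a second gene name, which enter no comparison above, were under 100 on both arrays where they name a gene of these families. The 4 that name ITGB6, an epithelial partner of alpha V, together with a long noncoding RNA read 33.2 to 53.6 with miR-129-3p and 27.5 to 42.8 in control. The 1 that names LAMA5 with LAMA5-AS1 read 90.2 with miR-129-3p and 89.2 in control.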
